A study of Homo sapiens with 20 samples.

Results

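A set of 10 genes of the extracellular matrix and its proteoglycans was followed across the knockdowns of this series: BCAN, FMOD, LTBP2, MATN3, NTN4, TNC, COL26A1, ADAMTS2, XYLT1 and CHST1. They were taken as a fixed list of symbols and matched to the gene identifiers of the count files, which found all 10 members among 57820 genes. The members were chosen by their values in these data, the differences between cells with and without FOXA1 before hormone among them, so those differences are given below as a description with no test. All 10 members were among the 18806 genes kept for testing, but TNC, COL26A1 and ADAMTS2 were kept only through the FOXA1-depleted libraries. The working name of the list, matrix genes released without FOXA1, held for 5 members before hormone (BCAN, COL26A1, TNC, NTN4 and LTBP2), was not shown there for ADAMTS2 at the depth of these libraries, and went against the data for FMOD, MATN3 and CHST1, which were lower without FOXA1, and for XYLT1, which was higher only after hormone. The rise was not particular to FOXA1 for all of them. Before hormone BCAN, LTBP2 and NTN4 were also at least 2-fold higher without CBX3, and LTBP2 without BRG1.

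The cells were T47D, an established human luminal breast cancer line. Before hormone they were transfected with si-control, a control siRNA, or with siRNA directed at FOXA1 (a pioneer factor of luminal breast cells), CBX3 (the heterochromatin protein HP1 gamma) or BRG1 (the motor subunit of SWI/SNF remodelling complexes, encoded by SMARCA4). RNA was taken before (0 h) or after 6 h of 10 nM R5020, a synthetic progestin, with 2 libraries in each of 8 groups, all kept without serum before hormone, per the protocols given for 15 of the 16 libraries. A single library without siRNA at each time and 2 lists of BRG1 ChIP-seq peaks were also used.

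The extracellular matrix is the secreted network of collagens, glycoproteins and proteoglycans around cells. A proteoglycan is a core protein that carries long sugar chains. Many of these chains, but not all kinds, are started on the core by a xylosyltransferase. Sulfotransferases decorate the chains with sulfate. In the breast the matrix is made largely by stromal cells, while the epithelium contributes basement membrane components and secreted glycoproteins.

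Library totals ran from 50017255 to 74374857 fragments. CPM is the fragments of a gene scaled to library size. FOXA1 was at 44.4 to 62.8 CPM in its 4 knockdown libraries and at 158 to 505 CPM in the other 12. CBX3 was at 3.07 to 6.80 against 242 to 381 CPM, and SMARCA4 at 2.26 to 5.90 against 61.7 to 187 CPM. At 0 h FOXA1 was at 61.4 and 62.8 CPM in si-FOXA1 against 389 and 408 CPM in si-control. At 6 h it was at 45.8 and 44.4 against 199 and 166 CPM. Without FOXA1, here and above, means this reduced level and not absence. The file headers record the same counting command settings for si-FOXA1 and si-CBX3, and another number of threads for si-BRG1 and si-control. SMARCA4 lay between 117 and 187 CPM in si-CBX3 and si-FOXA1 and between 61.7 and 76.6 CPM in si-control, and this counting set cannot be told apart from the siRNA there. For this reason si-FOXA1 is set against si-CBX3 as well as against si-control. The T47D identity fitted the labels: KRT8, KRT18, KRT19, CDH1, GATA3, ESR1 and PGR, all luminal markers, were present in every library, while TFF1 did not exceed 1.57 CPM. In bulk RNA, a change in how many cells express a gene and a change in RNA per cell cannot be told apart.

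The promoters of 4 members show the range of start-site sequence among the members, from 2 genes with few or no fragments in control cells that were higher without FOXA1 (BCAN, TNC) to 2 that were lowered (FMOD, MATN3). Each line is the 250 bases before the RefSeq start site (GRCh38.p14, read on the gene's strand), with capitals for the GC box GGGCGG, or CCGCCC on the opposite strand, and for the TATA-like words TATATAA and TATAAA or their reverse complements. The windows lie at chr1:156641867-156642116 (BCAN, plus strand), chr9:115118158-115118407 (TNC, minus), chr1:203351123-203351372 (FMOD, minus) and chr2:20012669-20012918 (MATN3, minus).
BCAN: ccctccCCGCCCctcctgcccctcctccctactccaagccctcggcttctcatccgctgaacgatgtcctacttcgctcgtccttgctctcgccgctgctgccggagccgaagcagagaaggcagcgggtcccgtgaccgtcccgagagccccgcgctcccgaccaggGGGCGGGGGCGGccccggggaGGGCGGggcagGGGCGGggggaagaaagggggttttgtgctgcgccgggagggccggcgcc
TNC: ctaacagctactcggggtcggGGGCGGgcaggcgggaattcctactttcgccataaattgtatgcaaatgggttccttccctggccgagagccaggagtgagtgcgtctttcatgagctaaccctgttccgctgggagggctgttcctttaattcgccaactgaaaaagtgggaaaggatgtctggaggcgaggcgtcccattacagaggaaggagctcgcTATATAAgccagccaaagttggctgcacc
FMOD: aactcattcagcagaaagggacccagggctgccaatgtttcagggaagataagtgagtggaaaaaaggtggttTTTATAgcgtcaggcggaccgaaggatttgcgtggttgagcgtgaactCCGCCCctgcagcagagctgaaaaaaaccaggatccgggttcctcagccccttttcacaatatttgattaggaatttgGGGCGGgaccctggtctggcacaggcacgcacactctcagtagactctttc
MATN3: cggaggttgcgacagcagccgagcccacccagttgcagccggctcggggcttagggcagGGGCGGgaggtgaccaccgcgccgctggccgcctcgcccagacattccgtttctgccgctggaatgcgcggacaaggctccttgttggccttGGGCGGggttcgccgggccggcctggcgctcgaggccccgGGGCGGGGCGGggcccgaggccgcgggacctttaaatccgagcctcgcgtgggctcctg

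RefSeq gave 10 promoter windows for 9 of the members, with 2 for NTN4; CHST1 had no entry. GC content of the 250 bases ran from 51.6% in FMOD and 54.8% in TNC to 80.0% in ADAMTS2, beside a median of 58.0% over 35116 promoters. A GC box was present in 8 of the 10 windows and in 42.6% of all promoters. The TATA-like word TATATAA was found in TNC and in 2.42% of all promoters, and TATAAA in FMOD and in 10.7%. The forkhead words TGTTTAC and TGTTTGC, the hormone receptor half-site TGTTCT and the AP-1 word TGANTCA, each searched on both strands, were in none of the 10 windows; they were in 2.98%, 3.23%, 12.4% and 6.57% of all promoters. These windows are short and the words exact, so the absence says only that these letters are not there.

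Before hormone, 9 of the 10 members were at least 2-fold apart between si-FOXA1 and si-control by fitted values with no overlap of the libraries, 6 higher and 3 lower. Over all genes tested 37.6% did so, 24.5% higher and 13.1% lower. The sixth higher member, ADAMTS2, had no fragment in si-control, and with counts below 3 fragments per library set to 3 the count was 8 members, 5 of them higher, beside 37.0% of all genes. Against si-CBX3 at 0 h 8 members were apart, 5 higher and 3 lower, beside 27.6% of all genes (18.3% higher and 9.24% lower), and 8 again with that floor, beside 27.0%. ADAMTS2 was among these 8 on 13 fragments against 5, a ratio of 2.61 whose interval (0.872 to 9.34) includes no difference. LTBP2 was not among the 8 with that floor, at 26.2 and 24.5 CPM in si-FOXA1 against 13.0 and 12.5 CPM in si-CBX3. The list was chosen with these values known, and nothing is read from the counts.

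BCAN (ENSG00000132692.14, hg19 chromosome 1, 156611182 to 156629324) encodes brevican, a chondroitin sulfate proteoglycan of the lectican family known from brain matrix. It was counted at 0 and 5 fragments in the 2 si-control libraries and at 2321 and 2309 fragments in the 2 si-FOXA1 libraries at 0 h, or 33.5 and 35.1 CPM. After 6 h it was at 7 and 0 fragments in si-control and at 24.2 and 30.5 CPM in si-FOXA1. The libraries of the 2 siRNAs did not overlap at either time. At 6 h the ratio of si-FOXA1 to si-control, from summed fragments, was 415 (95% interval 201 to 1033, exact, counting error only).

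COL26A1 (ENSG00000160963.9, hg19 chromosome 7, 101006101 to 101202304) encodes a collagen, type XXVI, and TNC (ENSG00000041982.10, hg19 chromosome 9, 117782806 to 117880536) encodes tenascin-C, a large matrix glycoprotein of developing and remodelling tissue. COL26A1 was at 1 and 2 fragments in si-control at both times, and at 5.82 and 6.62 CPM at 0 h and 5.76 and 5.45 CPM at 6 h in si-FOXA1. TNC was at 1 and 1 fragments (0 h) and 0 and 3 fragments (6 h) in si-control, and at 1.60 and 1.81 CPM (0 h) and 1.27 and 1.26 CPM (6 h) in si-FOXA1. Both genes thus went from a handful of fragments to a low but even level in every FOXA1-depleted library. Their ratios at 6 h were 197 (67.2 to 959) and 44.5 (14.9 to 218).

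ADAMTS2 (ENSG00000087116.9, hg19 chromosome 5, 178537852 to 178772431), a protease that removes the amino-terminal propeptide of fibrillar procollagens, did not exceed 9 fragments in any siRNA library outside si-FOXA1 at 6 h, while the library without siRNA at 6 h gave 154 estimated reads of it. It was at 0 fragments in both si-control libraries at 0 h, at 0 and 3 fragments there at 6 h, and at 7 and 6 fragments in si-FOXA1 at 0 h. At 6 h the si-FOXA1 libraries held 185 and 197 fragments, 3.30 and 3.27 CPM. At 0 h si-FOXA1 was at least 1.96-fold higher than si-control, taking 3 fragments per library as the floor for a count of 0. At 6 h the ratio was 116 (39.3 to 564).

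NTN4 (ENSG00000074527.7, hg19 chromosome 12, 96051583 to 96184930) encodes netrin-4, a laminin-related glycoprotein of basement membranes. It was at 11.1 and 11.2 CPM in si-control and at 225 and 216 CPM in si-FOXA1 at 0 h. At 6 h the values were 7.73 and 7.02 CPM against 133 and 128 CPM. LTBP2 (ENSG00000119681.7, hg19 chromosome 14, 74964873 to 75079306), a latent TGF-beta binding protein associated with elastic fibres, was at 1.71 and 2.05 CPM in si-control and 26.2 and 24.5 CPM in si-FOXA1 at 0 h, then at 1.42 and 1.46 against 16.9 and 20.5 CPM at 6 h. The si-FOXA1 libraries lay above the si-control libraries at both times for both genes.

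FMOD and MATN3 went the other way. FMOD (ENSG00000122176.10, hg19 chromosome 1, 203309756 to 203320617) encodes fibromodulin, a small leucine-rich proteoglycan that binds collagen fibrils, and was at 34.8 and 35.5 CPM in si-control and 0.563 and 0.837 CPM in si-FOXA1 at 0 h. At 6 h it was at 30.8 and 28.9 against 0.588 and 0.665 CPM. MATN3 (ENSG00000132031.8, hg19 chromosome 2, 20191872 to 20212455), matrilin-3, an adaptor protein best known from cartilage, was at 67.4 and 72.7 CPM in si-control and 1.15 and 1.22 CPM in si-FOXA1 at 0 h, and at 72.8 and 70.1 against 2.42 and 2.28 CPM at 6 h. No si-FOXA1 library came near a si-control library for either gene.

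The other 2 members are Golgi enzymes of the sugar chains. XYLT1 (ENSG00000103489.7, hg19 chromosome 16, 17195626 to 17564738), which adds the first xylose of a glycosaminoglycan chain to the core protein, was at 22.7 and 20.6 CPM in si-control and 18.0 and 21.3 CPM in si-FOXA1 at 0 h, and the libraries overlapped. At 6 h it was at 8.29 and 7.47 CPM in si-control and 60.1 and 62.7 CPM in si-FOXA1. CHST1 (ENSG00000175264.3, hg19 chromosome 11, 45670427 to 45687172), a carbohydrate sulfotransferase that acts on keratan sulfate, was at 18.1 and 15.2 CPM in si-control and 0.289 and 0.472 CPM in si-FOXA1 at 0 h, and at 6.69 and 6.26 against 1.66 and 2.51 CPM at 6 h.

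**Figure D1:**
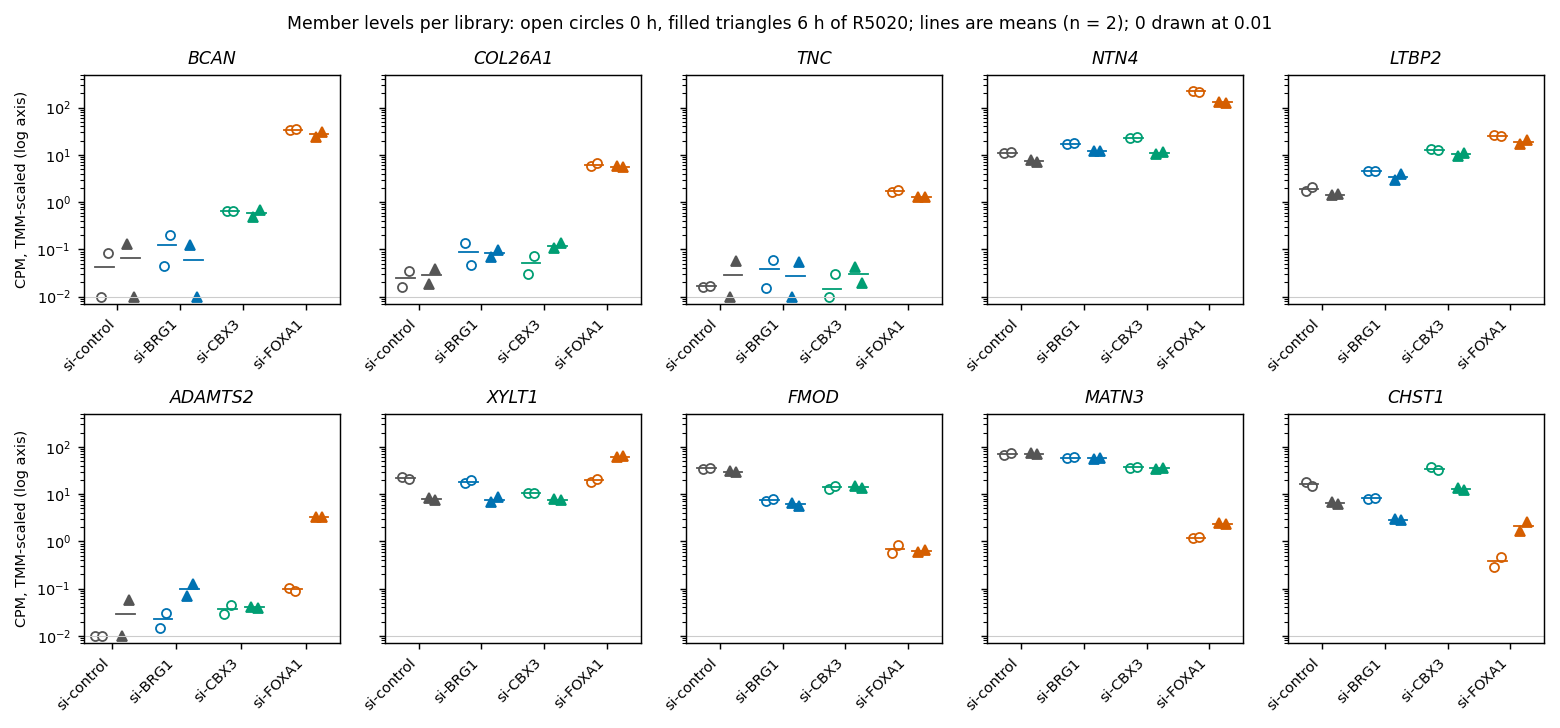
Each panel shows 1 member in all 16 siRNA libraries, as TMM-scaled CPM on a log axis, with open circles for 0 h, filled triangles for 6 h, lines for the mean of 2 libraries, and counts of 0 drawn at 0.01. In si-FOXA1, BCAN lies at 24.2 to 35.1 CPM and FMOD at 0.563 to 0.837 CPM, the former above and the latter below every library of the other siRNAs.

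The 6 h libraries are other libraries than those at 0 h, and there the difference was tested with edgeR's quasi-likelihood test with Benjamini-Hochberg adjustment over all genes. Results at 6 h may also have been in view when the list was drawn up, so these tests are not independent of the choice. Of the 7 members that passed the filter on low counts without the si-FOXA1 libraries, 4 were called higher and 3 lower at 6 h. Of all genes tested 74.6% were called, 40.1% higher and 34.5% lower, so a call alone says little about these genes. TNC, COL26A1 and ADAMTS2 entered the test only through the si-FOXA1 libraries, and for them the ratios above stand with no p. Among the genes that rose, NTN4 changed by 4.14 (SE 0.08, adjusted p = 6.2e-16, edgeR), LTBP2 by 3.70 (SE 0.15, 2.4e-12) and XYLT1 by 2.96 (SE 0.12, 1.7e-12) on the log2 scale. BCAN rose with an edgeR adjusted p of 2.1e-11. FMOD changed by -5.57 (SE 0.16, adjusted p = 5.2e-14, edgeR), MATN3 by -4.93 (SE 0.09, 3.1e-16) and CHST1 by -1.63 (SE 0.17, 1.4e-07).

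Against si-CBX3, whose files share its counting settings, the same 7 members gave 4 calls higher and 3 lower at 6 h, beside 69.3% of all genes called (35.5% higher, 33.7% lower). The log2 differences were 3.57 for NTN4 (SE 0.08), 3.01 for XYLT1 (SE 0.12), -4.47 for FMOD (SE 0.16), -3.91 for MATN3 (SE 0.09) and -2.63 for CHST1 (SE 0.16). From summed fragments, BCAN was 46.4 times (35.9 to 61.1), COL26A1 46.5 times (26.5 to 90.5), TNC 42.0 times (14.1 to 206) and ADAMTS2 81.9 times (31.7 to 302) the si-CBX3 level. LTBP2 was higher by 0.87 on the log2 scale (SE 0.12, adjusted p = 6.2e-06, edgeR), and was also high without CBX3.

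Without CBX3, LTBP2 was the member with the clearest rise. At 6 h 5 members rose and 2 fell against si-control, beside 49.2% of all genes called (24.7% higher, 24.4% lower). Of the 7 members kept by the filter without the si-FOXA1 libraries, 4 rose and 2 fell. LTBP2 was at 9.58 and 10.9 CPM without CBX3, against 1.42 and 1.46 CPM in si-control, a log2 change of 2.83 (SE 0.15, adjusted p = 6.7e-10, edgeR). CHST1 rose by 1.00 (SE 0.14) with 13.5 and 12.4 CPM, the opposite direction to its change without FOXA1, and NTN4 rose by 0.57 (SE 0.08). BCAN was counted at 23 and 36 fragments, against 7 and 0 in si-control (edgeR adjusted p = 0.0031). COL26A1, which entered the test only through the si-FOXA1 libraries, was at 5 and 7 against 1 and 2 (edgeR adjusted p = 0.033). The BCAN call was lost in DESeq2 (adjusted p = 0.067), and the COL26A1 call without any 1 of the 4 libraries compared (edgeR adjusted p from 0.056 to 0.16). FMOD fell by 1.10 and MATN3 fell by 1.02 on the log2 scale. TNC was at 2 and 1 fragments and ADAMTS2 at 2 and 2 fragments. At 0 h 7 members differed at least 2-fold between si-CBX3 and si-control with no overlap, beside 18.6% of all genes (11.0% higher, 7.55% lower). ADAMTS2 was among them on 2 and 3 fragments against 0 and 0, and with the floor of 3 fragments the count was 6, beside 17.0% of all genes. Of these XYLT1 was at 10.4 and 10.5 CPM and CHST1 at 36.8 and 32.1 CPM.

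Loss of BRG1 gave 2 members higher and 3 lower at 6 h, beside 37.3% of all genes called (19.6% higher, 17.8% lower). LTBP2 rose by 1.27 (SE 0.17, adjusted p = 2.1e-05, edgeR) and NTN4 by 0.73 (SE 0.08). FMOD fell by 2.31 on the log2 scale (SE 0.12, adjusted p = 2.7e-09, edgeR), from 30.8 and 28.9 CPM to 6.60 and 5.48 CPM, and CHST1 fell by 1.17 (SE 0.16). MATN3 fell by 0.32 (SE 0.07), at 56.3 and 58.2 CPM against 72.8 and 70.1 CPM. BCAN, TNC, COL26A1 and ADAMTS2 did not exceed 9 fragments in any si-BRG1 library at 6 h. At 0 h 5 members were at least 2-fold apart with no overlap, beside 6.49% of all genes (3.98% higher, 2.52% lower). They included ADAMTS2, at 1 and 2 fragments against 0 and 0, and COL26A1, at 9 and 3 against 1 and 2. With the floor of 3 fragments 3 members were left, LTBP2 higher and FMOD and CHST1 lower, beside 5.08% of all genes. These 3 knockdowns share the si-control libraries, so likeness between their differences is not read as a result.

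**Figure D2:**
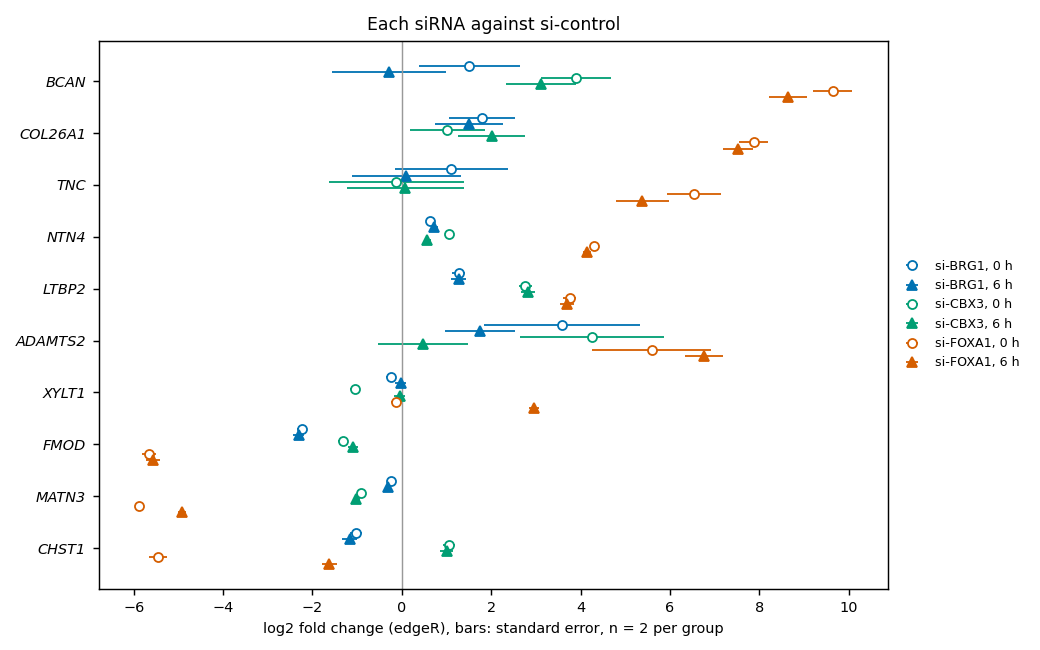
The plot shows the fitted log2 fold change of each member for each siRNA against si-control, with bars of 1 standard error, open circles for 0 h and filled triangles for 6 h (n = 2 per group). The si-FOXA1 values lie farthest from 0 for FMOD, MATN3 and NTN4; fitted values of BCAN, COL26A1, TNC and ADAMTS2 rest on few or no control fragments and depend on the prior count.

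With si-control, 3 members fell and none rose (edgeR, adjusted p below 0.05), beside 37.6% of all genes called (19.5% higher, 18.1% lower): XYLT1 fell by 1.46 (SE 0.11, adjusted p = 2.2e-08), CHST1 fell by 1.36 (SE 0.14, 7.0e-07) and NTN4 fell by 0.60 (SE 0.08, 1.3e-05) on the log2 scale. Under si-BRG1 1 member rose and 4 fell, beside 35.7% of all genes (18.6% higher, 17.1% lower). The 1 that rose, ADAMTS2, entered the test only through the si-FOXA1 libraries. Under si-CBX3 4 fell, beside 41.0% (20.4% higher, 20.5% lower). CHST1 went from 7.87 and 8.44 to 2.92 and 2.84 CPM under si-BRG1, and fell by 1.41 on the log2 scale under si-CBX3. XYLT1 fell by 1.24 under si-BRG1 and fell by 0.45 under si-CBX3, and NTN4 fell by 0.50 and 1.08. LTBP2 fell by 0.38 and 0.32. The si-BRG1 call was lost without either 0 h library, without the first 6 h library, and with only the groups compared (edgeR adjusted p = 0.17). The si-CBX3 call was lost without any 1 of the libraries compared and in DESeq2 (adjusted p = 0.064). Without the first 6 h library, the LTBP2 log2 change was -0.21 under si-BRG1 and -0.20 under si-CBX3. The XYLT1 call under si-CBX3 was lost (edgeR adjusted p = 0.0507) without the second si-CBX3 6 h library. ADAMTS2 was called higher under si-BRG1 on 1 and 2 fragments at 0 h and 4 and 9 at 6 h (edgeR adjusted p = 0.049), which was lost in DESeq2 (0.090) and with the replicate number as a block (0.058).

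Without FOXA1 the hormone response of the sugar-chain enzymes had the opposite sign. In si-FOXA1 3 of the 7 members kept by the filter without these libraries rose and 2 fell, beside 38.8% of all genes called (19.1% higher, 19.6% lower). XYLT1 rose by 1.64 (SE 0.11, adjusted p = 2.6e-09, edgeR), CHST1 by 2.46 (SE 0.25, 5.2e-07) and MATN3 by 0.99 (SE 0.12, 3.2e-06). ADAMTS2, which entered the test only through these libraries, was 34.1 times its 0 h level from summed fragments (19.7 to 64.7) and gets no p. NTN4 fell by 0.76 (SE 0.07) and LTBP2 fell by 0.44 (SE 0.11); the LTBP2 call was lost without the first si-FOXA1 library at either time (edgeR adjusted p = 0.058 at 0 h and 0.096 at 6 h). CHST1 rose from a far lower level than in control cells and stayed below it at 6 h, while XYLT1 started at the control level and ended above it.

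The difference between the hormone response of si-FOXA1 and that of si-control was tested directly, with 3 members called, all higher, beside 28.7% of all genes (13.0% higher, 15.7% lower). It was 3.82 for CHST1 (SE 0.28, adjusted p = 6.0e-08, edgeR), 3.10 for XYLT1 (SE 0.16, 8.2e-10) and 0.96 for MATN3 (SE 0.13, 6.1e-05). These tests share the 0 h libraries on which the list was drawn up. For CHST1 and MATN3, which were low without FOXA1 at 0 h, part of the difference rests on values used in the choice; XYLT1 was not apart at 0 h, but its response may have been known when it was chosen. For ADAMTS2, which gets no p here either, the difference of responses was 1.17 (SE 2.51), with too few control fragments to measure it. The NTN4 difference was -0.16 (SE 0.10, adjusted p = 0.29, edgeR).

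**Figure D3:**
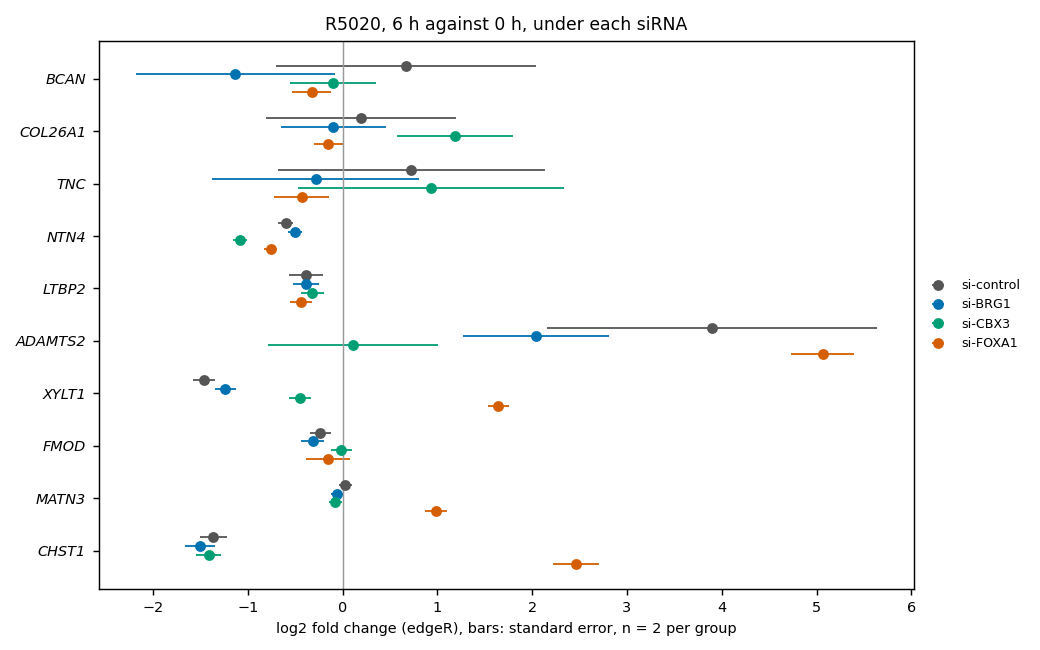
The plot gives the log2 fold change of each member from 0 h to 6 h of R5020 under each siRNA, with bars of 1 standard error (n = 2 per group). CHST1 and XYLT1 lie left of 0 under si-control, si-BRG1 and si-CBX3 and right of 0 under si-FOXA1, at 2.46 and 1.64.

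On a scale that accounts for gene length (FPKM, from TMM-scaled CPM and exon length), the order of the members differed with FOXA1. At 6 h in si-control the order was MATN3 at 22.9 ± 0.61 (SD, n = 2), FMOD at 9.03 ± 0.40, CHST1 at 1.86 ± 0.087, NTN4 at 1.77 ± 0.12, XYLT1 at 0.716 ± 0.053 and LTBP2 at 0.154 ± 0.0033 FPKM, with the other 4 below 0.02 FPKM. CHST1 and NTN4 did not differ beyond their spread. In si-FOXA1 the order was NTN4 at 31.3 ± 0.93, XYLT1 at 5.58 ± 0.16, BCAN at 5.55 ± 0.90, LTBP2 at 2.01 ± 0.27, COL26A1 at 1.78 ± 0.068, MATN3 at 0.754 ± 0.033, CHST1 at 0.599 ± 0.17 and ADAMTS2 at 0.427 ± 0.0021 FPKM. There XYLT1 and BCAN, LTBP2 and COL26A1, and MATN3 and CHST1 were neighbours that lay within their spread. FMOD and TNC came last, at 0.189 ± 0.016 and 0.146 ± 0.00018 FPKM.

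**Figure D4:**
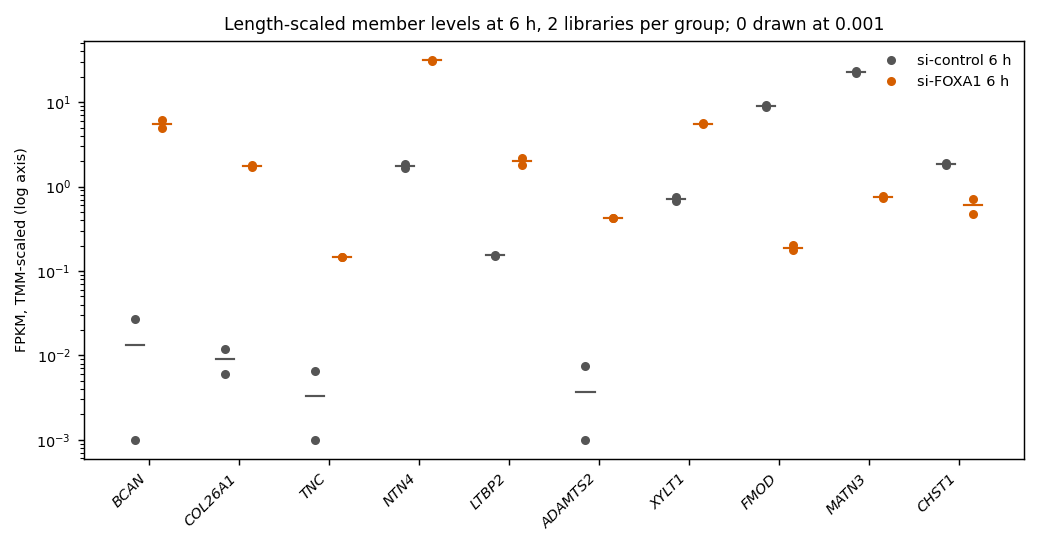
Points are the 2 libraries of si-control and si-FOXA1 at 6 h for each member, as FPKM on a log axis, with lines for the means and counts of 0 drawn at 0.001. MATN3 and FMOD lead in si-control, at 22.9 and 9.03 FPKM, and NTN4 leads in si-FOXA1, at 31.3 FPKM.

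The members were set beside the rest of the matrix from lists of known components, with the members left out. These lists were drawn up with earlier results of these data known. Their genes were not checked for passing the filter only through si-FOXA1, so the counts are a description. They are set against si-control alone, so counting set and siRNA cannot be told apart in them. In si-FOXA1 against si-control at 6 h, 21 of 30 collagens tested were higher and 2 lower, with a median log2 fold change of 2.07. COL7A1, the collagen of anchoring fibrils, went from 0.568 to 30.9 CPM (means of 2), COL11A2 from 0.255 to 12.3 CPM and COL6A1 from 2.87 to 32.5 CPM. Of 13 latent TGF-beta binding proteins, fibrillins and related microfibril genes, 10 were higher and 1 lower, LTBP1 among the former with 77.9 against 371 CPM. Of 15 matrilins, tenascins, thrombospondins and netrins and related adhesive glycoproteins, 11 were higher and 2 lower: THBS1, thrombospondin-1, rose by 1.35 (SE 0.06). FN1, fibronectin, fell by 1.92 on the log2 scale. These counts stand beside 40.1% of all genes higher and 34.5% lower.

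Of 27 collagen processing and crosslinking enzymes 16 were higher and 8 lower: FKBP10, a chaperone of collagen folding, rose by 2.23, and PLOD2, a lysyl hydroxylase, fell by 1.27. Of 29 genes of glycosaminoglycan linker and chain synthesis 15 were higher and 7 lower, and of 14 sulfotransferases 7 were higher and 3 lower, with CHST3 at 16.7 against 66.4 CPM and CHST10 at 34.0 against 11.4 CPM. Of 20 ADAMTS and matrix metalloproteinases and their inhibitors 11 were higher and 2 lower: TIMP3 rose by 4.43 (SE 0.22) while TIMP1 fell by 3.45 (SE 0.16). Of 17 cell-surface and basement membrane proteoglycans 9 were higher and 3 lower, with HSPG2, perlecan, at 13.3 against 151 CPM. Only 3 lecticans and link proteins (2 higher, 1 lower) and 6 small leucine-rich proteoglycans (2 higher, 2 lower) could be tested. The counts of these lists, too, stand beside 40.1% of all genes higher and 34.5% lower.

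**Figure D5:**
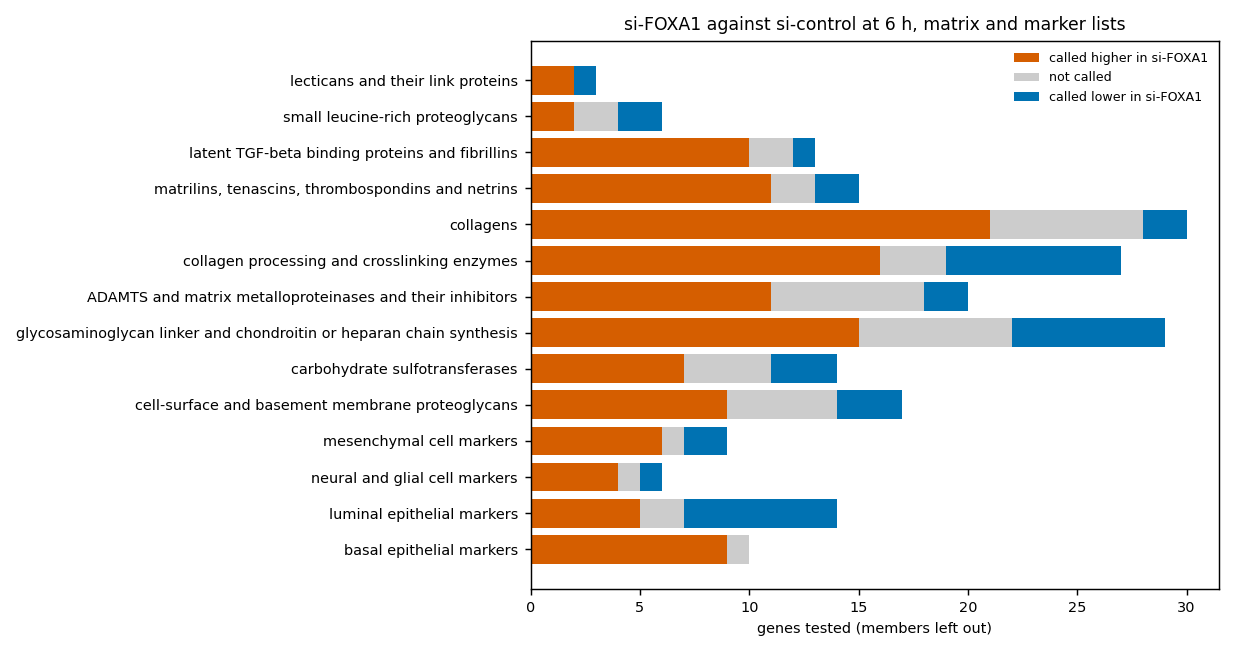
Bars give, for each list with members left out, how many genes tested were called higher, not called or called lower in si-FOXA1 against si-control at 6 h (edgeR, adjusted p below 0.05). Collagens reach 21 higher of 30 and basal epithelial markers 9 higher of 10.

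Markers of other cell types were read in the same libraries. Counts of markers called in si-FOXA1 against si-control at 6 h stand beside 40.1% of all genes higher and 34.5% lower. Summed over 15 mesenchymal markers, si-FOXA1 libraries were at 110 to 119 CPM and si-control libraries at 104 to 125 CPM. The si-CBX3 libraries were lower, at 71.5 to 78.0 CPM, and so were the si-BRG1 libraries, at 53.9 to 69.3 CPM. S100A4 alone was at 39.1 to 107 CPM over all libraries, so the sums do not show how the other genes moved. TWIST2 was at 0 in every library, and FAP and PDGFRA did not exceed 0.045 and 0.074 CPM. Within that list 6 of 9 genes tested were higher and 2 lower at 6 h. TAGLN, an actin-binding protein, rose by 3.48 and ACTA2 by 2.21, while VIM fell by 1.29. Against si-control at 6 h, ACTA2 also rose by 2.06 without CBX3 and by 0.64 without BRG1. VIM rose by 0.42 without CBX3 and fell by 1.22 without BRG1, and TAGLN was called in neither. Summed over 14 neural and glial markers, which bear on BCAN, si-FOXA1 libraries were at 106 to 179 CPM, si-control at 72.2 to 86.4 CPM and si-CBX3 at 71.7 to 82.7 CPM. Most of the sum was MAP2, at 53.5 to 159 CPM over all libraries. Of 6 neural and glial markers tested 4 were higher and 1 lower at 6 h: TUBB3 rose by 2.85 and MBP by 2.16, while SYP fell by 2.04. OLIG2 was at 0 throughout, and GFAP and SOX10 did not exceed 0.14 and 0.042 CPM. Of 10 basal epithelial markers tested 9 were higher and none lower at 6 h. Summed over 12 basal markers, si-FOXA1 libraries were at 726 to 764 CPM, si-control libraries at 262 to 348 CPM and si-CBX3 libraries at 344 to 367 CPM. ITGB4 alone was at 102 to 282 CPM over all libraries, so this sum does not show how every basal gene moved. At 6 h ITGA6 was at 30.4 CPM in si-control and 162 CPM in si-FOXA1, and CDH3 at 55.5 and 167 CPM. The keratins KRT5, KRT14, KRT17, KRT6A and KRT6B did not exceed 1.71, 0.499, 0.321, 0.171 and 0.206 CPM in any library. Of 14 luminal markers 5 were higher and 7 lower, or 7 and 4 with scaling by library totals alone; TFF3 fell by 4.64 and SPDEF by 2.46, while the 5 higher were KRT8, KRT18, ESR1, PGR and ELF3, named after their values were seen. The luminal sum at 6 h was 11798 and 11623 CPM in si-FOXA1 against 10963 and 11227 CPM in si-control and 9903 and 9552 CPM in si-CBX3. The part of these shifts in the members' differences was not tested.

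Cells without siRNA gave values for 7 members, from 1 library per time with no test. In RPKM, NTN4 was at 8.07 at 0 h and 4.94 at 6 h, XYLT1 at 1.60 and 1.37, MATN3 at 1.28 and 1.22, CHST1 at 0.653 and 0.382, LTBP2 at 0.321 and 0.280, TNC at 0.0057 and 0.0105 and ADAMTS2 at 0 and 0.306. In si-control at 0 h the mean FPKM was 22.5 for MATN3, 4.78 for CHST1, 2.68 for NTN4, 1.97 for XYLT1 and 0.202 for LTBP2. MATN3 and CHST1 were thus lower without siRNA than in si-control and NTN4 was higher, each toward its si-FOXA1 level. The 2 kinds of file were quantified in different ways, and the cause of these gaps was not tested. 0 of the 7 were at least 2-fold apart on log2(RPKM + 1), beside 7.78% of 17398 genes. With 1 added, a gene below 1 RPKM at 0 h cannot fall 2-fold on this scale. The count therefore says nothing about a fall in CHST1, LTBP2, TNC or ADAMTS2. The ADAMTS2 value at 6 h came from 154 estimated reads, and its highest transcript, of 664 nucleotides, was at 0.197 RPKM. BCAN, FMOD and COL26A1 without siRNA were not analysed here.

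BRG1 peaks, taken from cells without siRNA, were not near the start of any member. None of the 10 had a peak within 5 kb of its 5 prime end before hormone or at 30 min, beside 1.89% and 10.3% of the genes tested. Within 50 kb at 30 min there were 2, FMOD with a peak 44.8 kb downstream (hg19 chr1:203273758-203275852) and NTN4 with one 27.7 kb downstream, inside the gene (hg19 chr12:96155804-96157270), beside 24.3% of genes. The NTN4 gene held 1 peak at 0 min and 3 at 30 min.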

How the data were processed

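The members and gene lists were chosen with earlier results of these data known. For the 16 siRNA libraries the authors deposited raw fragment counts per gene; featureCounts 1.4.6-p2 produced them, per the file headers, in strand-specific mode on GENCODE release 19 models of hg19. STAR and Trimmomatic are named in the submitters' processing notes. The 2 files without siRNA hold RPKM and estimated reads per transcript as deposited by the authors (tool not given in the sources used here), summed here per gene. Each BRG1 peak list comes from 1 library, and its score column is the authors' own, as deposited.

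Counts were fitted with edgeR 4.0.16 in R 4.3.3: filterByExpr over 8 groups (18806 genes), TMM scaling, a single quasi-likelihood model with group means (8 residual degrees of freedom), two-sided tests, Benjamini-Hochberg adjustment over all genes tested, and calls at an adjusted p below 0.05. SE is the log2 fold change divided by the square root of F. CPM and FPKM are TMM-scaled. A 0 h difference is described as at least 2-fold with no overlap, with no test. Totals of 50017255 to 74374857 fragments limit precision for members with few fragments; exact 95% intervals of ratios cover counting error only. The labels do not say whether replicates were separate cultures, so p-values measure the spread between these samples, which may be technical. In none of the 8 groups did the 2 replicates agree within sampling noise. Genes named were the 10 members, the siRNA targets, from each list up to 3 genes with the largest change among those called at 6 h in si-FOXA1 against si-control (mean log-CPM of at least 1, no overlap), the 2 genes most correlated with each member, and defining cell type markers. The fit was tested on simulated data. Alternatives were other scalings and filters, DESeq2 1.42.0, only the groups compared, a replicate block, and each library left out.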

Additional observations from a re-analysis of the deposited data

Results flagged for a closer look

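The hormone response differed between si-FOXA1 and si-control in 3 members, by a direct test of the difference (edgeR's quasi-likelihood test with Benjamini-Hochberg adjustment). On the log2 scale the difference was 3.82 for CHST1, 3.10 for XYLT1 and 0.96 for MATN3, and each was called under every alternative run. For XYLT1 the libraries of the 2 siRNAs overlapped before hormone, so the gap arose at 6 h. The test uses the 0 h libraries of both siRNAs, whose values were known when the list was drawn up; for CHST1 and MATN3 the low 0 h level in si-FOXA1 enters the difference, so it is not independent of the choice.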

How the results depend on the processing

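Of 90 tested values (10 members in 9 comparisons), 53 were called. Of these 7 lost the call under at least 1 alternative, 5 others gained one, and no called value changed sign. These counts include TNC, COL26A1 and ADAMTS2, which passed the filter only through si-FOXA1. The other 7 members were called in si-FOXA1 against si-control and against si-CBX3 at 6 h under every alternative. In the main fit 74.6% and 69.3% of all genes were called there. Calls of TNC, COL26A1 and ADAMTS2 in these comparisons are not read as a result, and a filter of at least 1 CPM in 4 libraries left ADAMTS2 out. The count of members called in the hormone response under si-BRG1 went from 5 to 3 with only the groups compared and ranged from 3 to 5 with 1 library left out; under si-CBX3 it went from 4 to 2 to 3 with 1 library left out. Of members at least 2-fold apart at 0 h, si-BRG1 against si-control went from 5 to 3 with counts below 3 fragments set to 3, a setting chosen after seeing the data. Members 2-fold apart without siRNA went from 0 to 1 with a pseudocount of 0.1 (ADAMTS2), and members near a 30 min BRG1 peak from 0 to 2 with a 50 kb window. Deviations of libraries with equal replicate numbers hardly moved together over all genes tested (correlations under 0.1). Low-count noise enters these correlations, so they cannot show whether the cultures were paired by replicate number. With the number as a block, those 7 members stayed called in si-FOXA1 against si-control at 6 h, and only the ADAMTS2 response under si-BRG1 lost its call. Library totals alone, in place of TMM, moved the median of all genes in that comparison from 0.12 to 0.41 and the calls from 7542 higher and 6490 lower to 9497 and 4801.

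Of the 37 values not called, 23 changed sign under at least 1 alternative, so no direction is given for them; the cause was not tested. With library totals alone, si-BRG1 and si-CBX3 against si-control at 6 h were 0.0596 and 0.0391 for XYLT1 (-0.03 and -0.05 with TMM), the si-control hormone response of MATN3 was -0.0414 (0.03), and the LTBP2 difference of responses was 0.0145 (-0.06), and 0.0115 with only the groups compared. With 1 library left out, the hormone response under si-CBX3 ranged from -0.13 to 0.41 for ADAMTS2, from -0.40 to 0.16 for BCAN and from -0.11 to 0.0862 for FMOD. The hormone response under si-control ranged from 0.00 to 4.86 for ADAMTS2, from -4.40 to 5.08 for BCAN, from -0.35 to 0.78 for COL26A1, from -0.0254 to 0.0833 for MATN3 and from -3.18 to 1.68 for TNC. The value of si-CBX3 against si-control at 6 h ranged from -0.48 to 4.38 for ADAMTS2, from -0.87 to 3.99 for TNC and from -0.12 to 0.0320 for XYLT1. The difference of responses ranged from -5.40 to 4.08 for BCAN, from -0.92 to 0.20 for COL26A1, from -0.18 to 0.39 for FMOD, from -0.20 to 0.0745 for LTBP2 and from -2.11 to 2.75 for TNC. The hormone response under si-BRG1 ranged from -5.91 to 0.26 for BCAN, from -0.66 to 0.86 for COL26A1 and from -4.26 to 0.94 for TNC. The value of si-BRG1 against si-control at 6 h ranged from -5.07 to 4.79 for BCAN, from -3.88 to 4.01 for TNC and from -0.19 to 0.11 for XYLT1. The hormone response under si-FOXA1 ranged from -0.41 to 0.16 for FMOD.

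BCAN, TNC, COL26A1 and ADAMTS2 had 0 to 13 fragments per library in si-control and si-BRG1, and differences between those groups at 6 h were not detectable at this depth.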

Other observations

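The genes whose log2 CPM followed each member most closely over the 16 siRNA libraries are given as a description, since the libraries share their siRNA groups. MATN3 ran with ABCC11, a membrane transporter (Pearson r = 0.996), and AGR2, a disulfide isomerase of secretory cells (0.991). FMOD ran with APMAP (0.994) and DNAJC12 (0.989), NTN4 with VASH1 (0.991) and the metalloproteinase MMP11 (0.990), and LTBP2 with FAM201A and POU6F1 (both 0.988). COL26A1 ran with ALS2CL (0.980) and PODXL2 (0.977), CHST1 with IGHMBP2 (0.961) and PEX11A (0.957), TNC with PITPNM3 (0.955), and BCAN with MYL5 (0.955) and MAN2C1 (0.951). ADAMTS2 ran with SPTBN1 (0.940) and CAST (0.939), and XYLT1 with TAGLN (0.922) and UNKL (0.919).

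Among the members, the closest pairs over the same libraries were NTN4 and COL26A1 (r = 0.942), TNC and COL26A1 (0.933) and FMOD and MATN3 (0.920). The most opposed pair was MATN3 and NTN4 (r = -0.972).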
